A study of Mus musculus with 8 samples.

Results

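The epithelial junction genes are 42 genes for the proteins that hold epithelial cells together and organise their apical side. They are 18 tight junction genes, 6 adherens junction genes, 9 desmosome genes, 3 gap junction genes, 3 polarity genes and 3 regulators of the epithelial state. Members were found by matching the RefSeq accession of each array probe to a gene symbol in RefSeq's table of assembly GRCm38.p6, which named 20660 genes on the array. Testing required a probe well above background on 2 or more arrays, as held for 35 of the 42 members and for 14044 genes in all. Of the 35, 29 were well above background on all 8 arrays. The 7 members not tested were the claudins Cldn1, Cldn3 and Cldn6, the adhesion molecule Jam3, Marveld2 (tricellulin, found where 3 cells meet), Marveld3 and Cdh3 (P-cadherin).

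The arrays carry Cy3-labelled total RNA from BMEL, a bipotential progenitor line taken from the livers of mouse embryos, on 1 one-colour Agilent SurePrint G3 slide. Cells had been kept in 1 of 3 media, DIFF (n = 2 arrays), CM (n = 3) or NoRX (n = 3), and all groups are the same line with no other treatment in the labels. According to its title, the series asks how liver progenitor cells respond to medium conditioned by human amniotic epithelial cells, but the labels spell out none of the 3 names and the composition of each medium is not given in the sources used here. No label states separate cultures, and the DIFF arrays are numbered 1 and 2 in one label and both as replicate 1 in another, so the p-values speak of the spread between these 8 arrays alone, which may be technical.

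Tight junctions seal the space between neighbouring epithelial cells through claudins and occludin, which cytoplasmic plaque proteins tie to actin. Adherens junctions join cells through cadherins and catenins, desmosomes tie cells to one another through keratin filaments, and gap junctions pass small molecules through connexin channels. In liver, tight junctions seal the bile canaliculus of hepatocytes and the lumen of bile ducts, so that bile is kept apart from blood.

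The arrays were alike in depth of detection except 1. Of 59305 non-control spots, 46.4% were well above background on DIFF replicate 2 and 50.8% to 53.5% on the other 7 arrays. Spots marked for an uneven local background numbered 1159 on DIFF replicate 2 and 3 to 90 elsewhere. Among members, the median SD between arrays of a group was 0.184 on the log2 scale in DIFF, 0.067 in CM and 0.074 in NoRX. The slide's first row held the 3 NoRX arrays and CM replicate 1, and its second row held the DIFF arrays and CM replicates 2 and 3, so no row holds both DIFF and NoRX. Levels below are log2 signals minus the 75th percentile of their array and are compared only within a probe. Differences are given on the log2 scale with their SE and a Benjamini-Hochberg adjusted p from limma, with a threshold of 0.05, and "higher" or "lower" is used of a whole medium only past that threshold. In bulk RNA, fewer cells that express a gene and less RNA per cell cannot be told apart.

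In DIFF, most junction genes that passed the test were lower than in NoRX, with the pore claudin Cldn2 and the plakin Ppl as the clearest exceptions. Of 35 members, 5 were higher and 21 lower, 26 in all (74.3%), against 42.1% of all genes called in this comparison (14.0% higher and 28.1% lower). The median difference of the members was -0.50, or -0.47 with the genes that have only a bound set at that bound, beside -0.10 over all genes tested. The media did not overlap for 29 members, 5 with DIFF higher and 24 with DIFF lower, against 57.1% of all genes (19.8% and 37.3%). Past a 2-fold difference lay 10 members, 2 higher and 8 lower, against 12.4% of all genes. Among the 8, Cldn4, Dsc2, Gja1 and Grhl2 were counted by fitted values, though not well above background on every DIFF array. With normexp background correction their differences were -0.04, 0.17, -0.43 and -0.75, and that of Evpl, also among the 8, was -0.88, all short of 2-fold. The count of lower members was 13 when arrays were scaled to their median, a scaling that put the median difference of all genes at 0.05 and left 2400 genes higher and 2133 lower, against 1962 higher and 3948 lower as reported. The split of all genes also differed between the DIFF arrays, with 3767 higher and 3369 lower without DIFF replicate 2 and 1753 higher and 6734 lower without DIFF replicate 1. With the slide row as a block, 17 members passed, 3 higher and 14 lower.

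In CM, junction genes moved both ways. Cldn4, Dsc2, Gja1, Cldn23, Crb3, Esrp1 and Esrp2 were among 12 members higher than in NoRX, while Cdh2, Cldn2, Pkp1 and Evpl were among 11 lower, 23 in all (65.7%), against 52.2% of all genes called (26.9% higher and 25.3% lower). The members' median difference was -0.05, beside 0.01 over all genes tested. The media did not overlap for 30 members, 14 with CM higher and 16 with CM lower, against 71.0% of all genes (36.5% and 34.6%). Past a 2-fold difference lay 9 members, 6 higher and 3 lower, against 11.4% of all genes. With normexp, Cldn4, Dsc2 and Cldn23, among the 6 higher, differed by 0.97, 0.94 and 0.63, short of 2-fold. Quantile normalization gave 11 higher and 16 lower. With the slide row as a block 15 passed, 9 higher and 6 lower. Within row 1, which holds 1 CM and 3 NoRX arrays, 25 passed, 10 higher and 15 lower, with the lone CM array assumed to vary as the others do. Leaving out either DIFF array, which changes the shared spread and no CM or NoRX value, gave 29 members called, 14 higher and 15 lower, among them Cldn12, Ocln, Tjp1, Cdh1, Ctnnb1 and Pard3.

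Set directly against CM, DIFF had 7 members higher and 19 lower, 26 in all (74.3%), against 59.1% of all genes called (23.6% higher and 35.5% lower). The median difference was -0.31, with and without bounds, beside -0.11 over all genes tested. The media did not overlap for 29 members, 9 with DIFF higher and 20 with DIFF lower, against 68.4% of all genes (27.0% and 41.4%). Past a 2-fold difference lay 13 members, 3 higher and 10 lower, against 20.3% of all genes. Among the 10, Cldn4, Dsc2, Gja1 and Grhl2 were not well above background on every DIFF array. With normexp their differences were -1.01, -0.78, -1.45 and -0.24, and that of Cldn23, also among the 10, was -0.56. Scaling to the median gave 9 higher and 14 lower, and without DIFF replicate 2 the higher members numbered 11, with Cldn15 (1.04), Cgnl1 (0.59), Jup (0.27) and Pkp2 (0.27) added. Without DIFF replicate 1, Ocln (-0.28) and Cdh1 (-0.26) passed as lower, and without CM replicate 1 Cldn15 passed at 0.93. Within row 2, which holds both DIFF arrays and 2 CM arrays, 22 passed, 7 higher and 15 lower. The 3 comparisons share arrays in pairs, so their counts are not independent of one another.

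**Figure D1:**
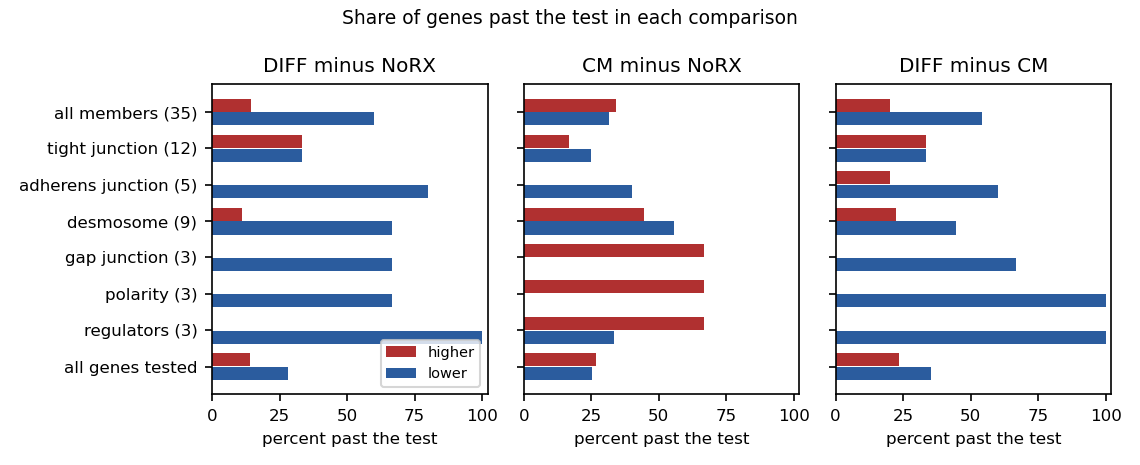
Bars give the percent of genes past the test that were higher (red) or lower (blue) in each comparison, for all 35 members, for each junction class with its number of tested members, and for all 14044 genes tested. In DIFF minus NoRX, 60.0% of members were lower against 28.1% of all genes. All 9 desmosome genes passed the test in CM minus NoRX, against 52.2% of all genes, though not all of these calls held in every alternative.

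Read across the media, 9 members were higher in CM than in NoRX and lower in DIFF than in both: Cldn4, Cldn23, Dsc2, Dsp, Gja1, Gjb1, Crb3, Esrp1 and Esrp2. This order was found in 9.03% of all genes tested. They come from 5 of the 6 classes, the adherens junction class having none. The opposite order, lower in CM than in NoRX and higher in DIFF than in both, was found in Cldn2 and Cgn, against 3.69% of all genes. Ppl was higher in all 3 comparisons, and Cldn7, Ocln, Cldn15 and Gjb2 passed none. Of the 9, Gjb1 and Esrp1 kept their 3 calls in every alternative run. Dsp lost its call in CM against NoRX in some, and the remaining 6 lost that in DIFF against NoRX, as given with each gene.

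**Figure D2:**
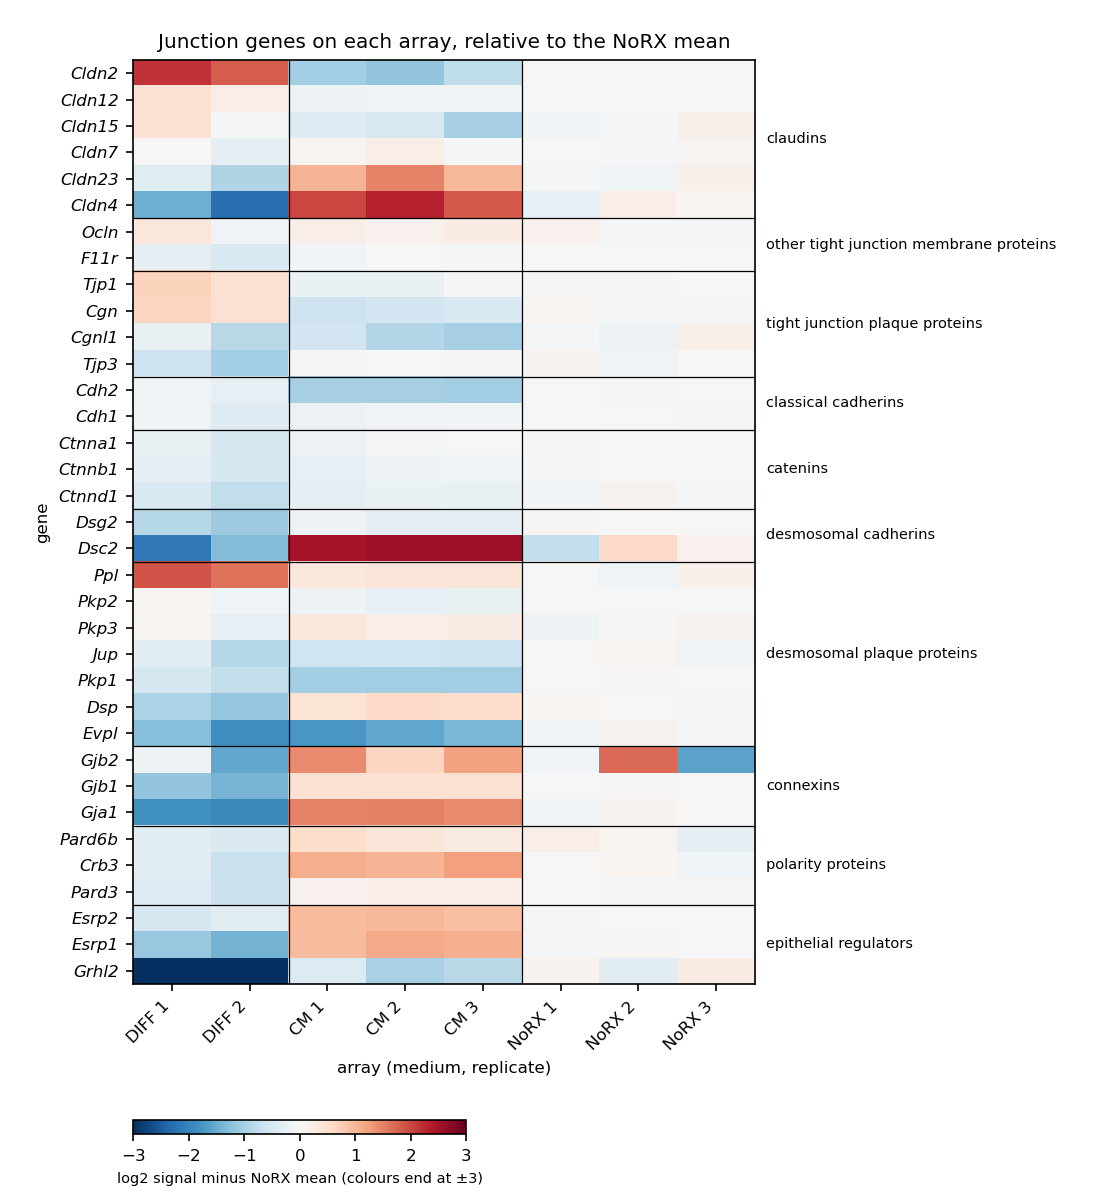
Each row is 1 of the 35 tested members and each column 1 array. Colour gives the log2 signal minus the gene's mean on the 3 NoRX arrays, with colours ending at ±3. Cldn4, Dsc2, Gja1, Crb3, Esrp1 and Esrp2 are red in CM and blue in DIFF, while Cldn2 runs the other way, and the Gjb2 row shows the wide spread of that gene among the NoRX arrays.

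BMEL arrays carried the marks of a hepatic epithelial line. All 12 liver progenitor and epithelial markers were well above background on every CM and NoRX array, and 11 of them on both DIFF arrays. Against NoRX, 3 of the 12 were higher and 8 lower in DIFF, and 5 were higher and 7 lower in CM. Alb (albumin), a product of hepatocytes, differed by 8.87 ± 0.25 (adjusted p = 4.42e-10) in DIFF and by 3.29 ± 0.22 (adjusted p = 5.65e-07) in CM. Epcam, an adhesion protein of progenitors and bile duct cells, differed by -1.84 ± 0.13 (adjusted p = 4.56e-07) in DIFF and by 1.23 ± 0.11 (adjusted p = 5.48e-06) in CM, so it followed the order of the 9 genes above.

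Markers of other cell types were followed as sums of their linear signals, in multiples of an array's 75th percentile. Those of stellate cells and fibroblasts (9 of 9 with a probe) summed to 0.277 to 0.393 in DIFF, 1.32 to 1.62 in CM and 0.627 to 0.640 in NoRX, with Pdgfrb, Lum and Lrat not well above background on any array. Des (desmin) made up most of the CM sum, at 1.00 to 1.03 on the CM arrays, and 1 of 6 tested markers was higher and 1 lower in CM than in NoRX, Des at 1.94 ± 0.14 (adjusted p = 7.5e-07) and the collagen Col1a1 at -0.66 ± 0.17 (adjusted p = 0.0066). In DIFF, 0 of the 6 were higher and 2 lower than in NoRX. Macrophage and leukocyte markers (7 of 8 with a probe) summed to 11.1 to 13.6 in DIFF, 21.6 to 22.6 in CM and 17.1 to 18.7 in NoRX, with Adgre1 and Lyz2 not well above background on any array. Itgam and Cd14 were the brightest of them. Of 4 tested, 3 were higher and 0 lower in CM than in NoRX, and Itgam did not pass (-0.07). The 3 were Cd14 at 1.01, Csf1r at 0.56 and Cd52, at least 2.58-fold higher. In DIFF, 1 of the 4 was higher and 3 lower than in NoRX, and the same counts held against CM. The higher one was Cd52, a leukocyte surface protein, at 2.41 ± 0.46 (adjusted p = 0.000832) against CM. It was at least 13.7-fold above NoRX (adjusted p = 2.61e-06), where it was not well above background on any array. Endothelial markers (7 of 7) summed to 8.31 to 9.77 in DIFF, 10.5 to 11.4 in CM and 10.1 to 12.2 in NoRX, with Tek and Tie1 not well above background on any. Kdr was the brightest of them in CM and NoRX, at mean log2 levels of 3.39 and 3.41. Of 5 tested, 1 was higher and 1 lower in CM than in NoRX, Cdh5 at 1.85 and Lyve1 at -2.50, the latter not well above background on any CM array. In DIFF, 1 was higher and 1 lower than in NoRX, Lyve1 at 3.58 and Kdr at -0.33, with differences of the 5 from -1.39 to 3.58. Against CM, 1 was higher (Lyve1) and 2 lower (Cdh5 and Kdr) in DIFF, with differences from -3.24 to 6.08. Erythroid markers (5 of 5) summed to 0.828 to 0.913 in DIFF, 0.447 to 0.709 in CM and 0.623 to 0.835 in NoRX. The part of such cells in the junction gene results was not tested.

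Tight junction genes split in DIFF against NoRX, with 4 of 12 tested members higher (Cldn2, Cldn12, Cgn and Tjp1) and 4 lower (Cldn4, Cldn23, F11r and Tjp3), a median difference of -0.01. In CM, 2 were higher (Cldn4 and Cldn23) and 3 lower (Cldn2, Cgn and Cgnl1), a median of -0.10. Set against CM, DIFF had 4 higher and 4 lower, the same 8 genes as against NoRX, a median of 0.11. The counts of this class and of those below stand beside these shares of all genes called. The shares were 14.0% higher and 28.1% lower in DIFF against NoRX. They were 26.9% and 25.3% in CM against NoRX, and 23.6% and 35.5% in DIFF against CM.

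Cldn2 forms pores that let small cations and water pass between cells, and it showed the highest difference of any member in DIFF. Its log2 level was 4.49 and 4.12 on the DIFF arrays, 1.27, 1.13 and 1.56 on the CM arrays and 2.30, 2.33 and 2.31 on the NoRX arrays. The 3 media did not overlap, with DIFF highest and CM lowest. DIFF was 3.98-fold above NoRX, a difference of 1.99 ± 0.13 (adjusted p = 3.21e-07), and CM was 1.99-fold below it, a difference of -0.99 ± 0.12 (adjusted p = 3.57e-05). DIFF lay 7.92-fold above CM, at 2.98 ± 0.13 (adjusted p = 6.91e-09). These calls held under every alternative run.

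Cldn4 is a barrier claudin that limits the passage of sodium, and it ran the opposite way. Its log2 level was -5.89 and -6.70 on the DIFF arrays, -2.43, -2.12 and -2.58 on the CM arrays and -4.68, -4.23 and -4.38 on the NoRX arrays. Every CM array was above every NoRX array and neither DIFF array was well above background. CM exceeded NoRX by 4.14-fold, a difference of 2.05 ± 0.28 (adjusted p = 0.000102). DIFF was at least 5.73-fold lower than CM (adjusted p = 9.21e-07) and at least 1.39-fold lower than NoRX (adjusted p = 0.000549). These bounds set the brighter medium against the dimmest signal that counts as well above background, or the gene's own where that is higher, on each array of the dimmer medium. The difference from NoRX was not called with normexp background correction (-0.04, adjusted p = 0.909) or with array weights (-1.89, adjusted p = 0.0584). Normexp also gave smaller differences of 0.97 for CM against NoRX and -1.01 for DIFF against CM, both still called, the second below the bound given.

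Cldn23, another claudin, had log2 levels of -3.67 and -4.20 on the DIFF arrays, -2.30, -1.82 and -2.30 on the CM arrays and -3.35, -3.42 and -3.15 on the NoRX arrays. CM stood apart from both other media, with a difference from NoRX of 1.17 ± 0.20 (adjusted p = 0.000533) and a difference of DIFF from CM of -1.79 ± 0.22 (adjusted p = 3.61e-05). The lower level in DIFF than in NoRX, -0.63 ± 0.22 (adjusted p = 0.0424), was lost in 14 alternatives, among them without DIFF replicate 2 (-0.36, adjusted p = 0.212), without any single NoRX array (adjusted p from 0.0618 to 0.118) and without CM replicate 1 or 3 (adjusted p = 0.0538 and 0.0585). With normexp the sign turned to 0.07, and the other differences were 0.63 for CM against NoRX and -0.56 for DIFF against CM, both still called.

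Among the other claudins, Cldn12 was higher in DIFF by 0.31 ± 0.08 (adjusted p = 0.0105) than in NoRX and by 0.45 ± 0.08 (adjusted p = 0.000674) than in CM, and its CM difference was -0.14 ± 0.07 (adjusted p = 0.141). Its difference from NoRX was 0.19 without DIFF replicate 1, and it was not called with the slide row as a block (0.27, adjusted p = 0.283), with array weights or with normexp, and was 0.47 when scaled to the median. Cldn7, found along the sides of many epithelial cells, passed no test, with log2 levels of -2.66 and -2.92 in DIFF, -2.57, -2.45 and -2.67 in CM and -2.66, -2.71 and -2.56 in NoRX, which overlap throughout. Cldn15, a claudin that forms sodium pores in the intestine, was well above background on 1 DIFF, 0 CM and 3 NoRX arrays. Its levels were -4.00 and -4.46 in DIFF, -4.80, -4.90 and -5.42 in CM and -4.52, -4.49 and -4.26 in NoRX. CM differed from NoRX by -0.62 ± 0.29, which did not pass the test (adjusted p = 0.104).

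The remaining tight junction membrane genes differed by less than 2-fold in every comparison. Ocln (occludin), a strand protein beside the claudins, differed from NoRX by 0.12 ± 0.12 (adjusted p = 0.459) in DIFF and by 0.18 ± 0.11 (adjusted p = 0.192) in CM, and neither passed. It passed against NoRX without DIFF replicate 2, at 0.34 (adjusted p = 0.00992). A second probe of Ocln gave -0.38 for CM against NoRX and 0.38 for DIFF against CM, both opposite in sign to the probe used. F11r, an adhesion molecule of the immunoglobulin family also called JAM-A, had log2 levels of 6.13 and 5.93 on the DIFF arrays, 6.31, 6.37 and 6.32 on the CM arrays and 6.37, 6.39 and 6.40 on the NoRX arrays. Both DIFF arrays were below all others, at -0.36 ± 0.08 (adjusted p = 0.00288) against NoRX and -0.31 ± 0.08 (adjusted p = 0.00491) against CM. Scaled to the median these differences were -0.20 (adjusted p = 0.221) and -0.14 (adjusted p = 0.371), and neither was called, nor was the first with the slide row as a block or the second within row 2 (adjusted p = 0.0851 and 0.135).

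The plaque proteins beneath the strands divided. Cgn (cingulin), which links the plaque to actin and myosin, had log2 levels of 3.53 and 3.35 on the DIFF arrays, 2.28, 2.32 and 2.44 on the CM arrays and 2.98, 2.84 and 2.86 on the NoRX arrays. The media did not overlap and stood in the same order as for Cldn2, with differences of 0.54 ± 0.09 (adjusted p = 0.000419) for DIFF against NoRX, -0.55 ± 0.08 (adjusted p = 0.000139) for CM against NoRX and 1.10 ± 0.09 (adjusted p = 9.56e-07) for DIFF against CM. With the slide row as a block the first was 0.45 (adjusted p = 0.0779).

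Tjp1 (ZO-1), the scaffold that binds claudins to actin, had log2 levels of 4.53 and 4.30 on the DIFF arrays, 3.64, 3.64 and 3.77 on the CM arrays and 3.88, 3.79 and 3.84 on the NoRX arrays. DIFF was above both other media, by 0.58 ± 0.09 (adjusted p = 0.00024) against NoRX and 0.74 ± 0.09 (adjusted p = 2.18e-05) against CM, in every alternative run. Its relative Tjp3 (ZO-3) went the other way, with levels of 1.15 and 0.75 on the DIFF arrays, 1.81, 1.76 and 1.81 on the CM arrays and 1.87, 1.67 and 1.78 on the NoRX arrays. DIFF was below CM and NoRX without overlap, at -0.83 ± 0.11 (adjusted p = 0.000124) against NoRX and -0.85 ± 0.11 (adjusted p = 5.94e-05) against CM, while CM and NoRX overlapped. Cgnl1 (paracingulin) was lower in CM than in NoRX, at -0.81 ± 0.21 (adjusted p = 0.0072), which was not called with the slide row as a block (-0.57, adjusted p = 0.166) and was -0.45 with normexp. Its difference in DIFF, -0.53 ± 0.23 (adjusted p = 0.0928), did not pass, but was -0.84 (adjusted p = 0.0117) without DIFF replicate 1.

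**Figure D3:**
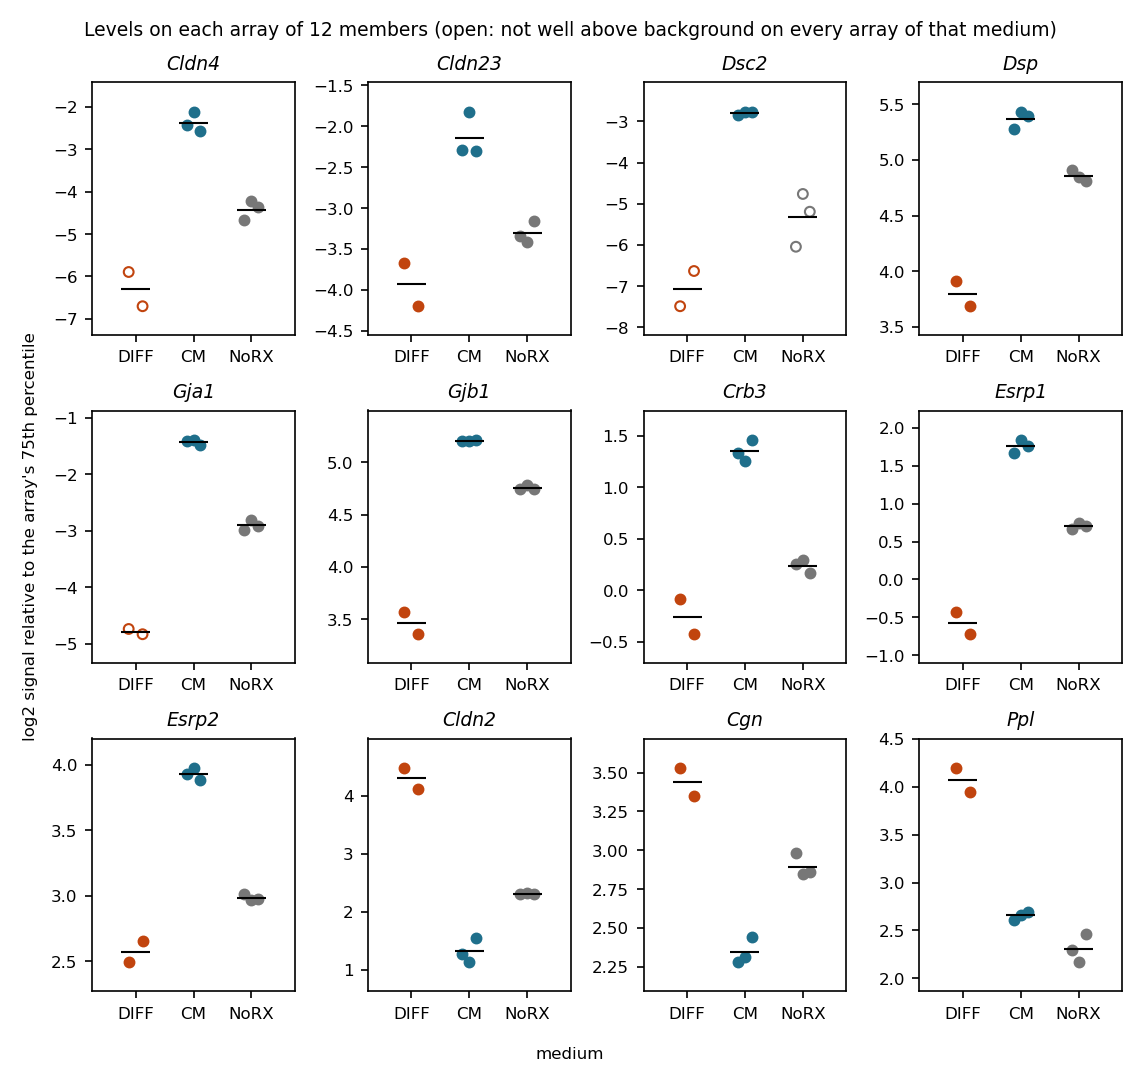
Points give the log2 signal of 12 members on each array, relative to the array's 75th percentile, with a line at the mean of each medium. Each panel has its own vertical scale. Open points mark a medium in which the gene was not well above background on every array. Cldn4 through Esrp2 peak in CM and are lowest in DIFF, Cldn2 and Cgn run the other way, and Ppl is highest in DIFF and lowest in NoRX.

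Promoter sequences are shown for members that stood in opposite orders across the media. The E-box CAGGTG, which reads CACCTG on the opposite strand, is a motif that the Snail and Zeb repressors bind, and AACCNGTT is a core that Grainyhead-like factors such as Grhl2 bind. RefSeq's promoter windows on GRCm38.p6, from 250 bases before to 50 after a gene's start, were found for 25 of the 42 members. The E-box was in a window of 14 of these 25 (56%), against 22.6% of the 27025 genes with a window and 20.2% of all 32851 windows of that length. A gene was counted if any of its windows held the motif, so genes with more windows had more chances of a match. Gjb1, Cldn7 and Pard3 also had windows without it. The Grainyhead-like core was in 1 of 25 (4%), Cgn, against 2.35% of genes and 2.09% of windows. Both motifs were searched on both strands, and no 2 matches of different motifs overlapped in the windows shown. The 5 windows below are those of Cldn4, Crb3 and Dsp, which peaked in CM (Dsp by its brighter probe only), and of Cldn2 and Cgn, which were highest in DIFF. The window of Gja1, which also peaked in CM and has no E-box, is not shown. E-boxes and Grainyhead-like cores are in capitals, and each window is written 5′ to 3′ on the gene's own strand.
Cldn4: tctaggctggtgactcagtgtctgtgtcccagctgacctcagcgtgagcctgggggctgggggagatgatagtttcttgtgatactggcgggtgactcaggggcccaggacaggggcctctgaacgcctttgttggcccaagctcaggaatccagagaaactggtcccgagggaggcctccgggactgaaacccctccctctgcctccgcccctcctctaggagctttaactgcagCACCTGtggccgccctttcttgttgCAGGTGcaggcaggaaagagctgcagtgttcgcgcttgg
Crb3: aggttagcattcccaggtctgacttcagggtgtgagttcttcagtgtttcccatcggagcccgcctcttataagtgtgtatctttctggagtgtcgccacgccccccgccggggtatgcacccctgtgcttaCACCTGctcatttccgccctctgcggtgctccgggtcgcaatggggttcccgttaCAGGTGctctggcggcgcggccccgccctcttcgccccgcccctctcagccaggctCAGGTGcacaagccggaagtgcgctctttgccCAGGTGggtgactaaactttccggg
Dsp: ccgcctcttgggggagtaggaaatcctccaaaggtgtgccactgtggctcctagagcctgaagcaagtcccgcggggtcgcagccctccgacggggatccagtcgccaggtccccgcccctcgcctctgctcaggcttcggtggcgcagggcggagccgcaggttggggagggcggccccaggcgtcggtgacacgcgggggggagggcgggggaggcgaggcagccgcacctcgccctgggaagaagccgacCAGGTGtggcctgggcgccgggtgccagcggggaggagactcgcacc
Cldn2: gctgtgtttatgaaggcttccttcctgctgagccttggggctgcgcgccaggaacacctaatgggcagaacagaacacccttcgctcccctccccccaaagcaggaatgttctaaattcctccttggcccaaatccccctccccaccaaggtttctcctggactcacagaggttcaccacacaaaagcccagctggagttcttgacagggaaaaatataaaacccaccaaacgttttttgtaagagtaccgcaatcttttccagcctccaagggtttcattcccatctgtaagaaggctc
Cgn: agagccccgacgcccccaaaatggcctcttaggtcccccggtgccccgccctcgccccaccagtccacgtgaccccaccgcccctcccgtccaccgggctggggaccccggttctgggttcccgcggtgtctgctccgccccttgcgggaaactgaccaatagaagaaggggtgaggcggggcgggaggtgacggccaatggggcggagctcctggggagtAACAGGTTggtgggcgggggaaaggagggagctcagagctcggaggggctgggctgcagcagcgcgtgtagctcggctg
The Cldn4 window lies at chr5:134946885-134947184 on the minus strand and holds 2 E-boxes. The Crb3 window lies at chr17:57061951-57062250 on the plus strand and holds 4, and that of Dsp, at chr13:38151044-38151343 on the plus strand, holds 1. The window of Cldn2, at chrX:139800558-139800857 on the plus strand, has no match to either motif. The window of Cgn, at chr3:94786433-94786732 on the minus strand, has no E-box and 1 Grainyhead-like core, which starts 29 bases before the gene's start. Of the 9 members that peaked in CM, 5 had a window and 4 of these an E-box (Cldn4, Crb3, Dsp and Gjb1, but not Gja1). Of the 5 members higher in DIFF than in NoRX, 4 had a window and 0 an E-box (Cldn2, Cldn12, Cgn and Tjp1). Of the 21 other tested members, 12 had a window and 7 of these an E-box (Cldn7, F11r, Gjb2, Ocln, Pard3, Pard6b and Tjp3), as did 3 of 4 windowed members that were not tested (Cldn3, Cldn6 and Marveld2), so the E-box was not confined to the members that peaked in CM. The match is to letters alone.

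The adherens junction members included none that was higher than in NoRX in either other medium. In DIFF, 0 of 5 tested members were higher and 4 lower than in NoRX (median difference -0.36), and 1 was higher and 3 lower than in CM (median -0.25). In CM, 0 were higher and 2 lower than in NoRX (median -0.17). None of these members' DIFF differences reached 2-fold against NoRX. Of 13 further adherens junction genes tested, 5 were higher and 4 lower in CM than in NoRX, and 1 was higher and 4 lower in DIFF than in NoRX.

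Cdh2 (N-cadherin), a classical cadherin that hepatocytes carry beside E-cadherin, gave the clearest difference of the class. Its log2 level was 2.37 and 2.23 on the DIFF arrays, 1.47, 1.48 and 1.43 on the CM arrays and 2.48, 2.45 and 2.49 on the NoRX arrays. The 3 CM arrays lay below all others, 2.02-fold below NoRX, a difference of -1.01 ± 0.07 (adjusted p = 4.9e-07). DIFF was above CM by 0.84 ± 0.07 (adjusted p = 2.24e-06) and differed from NoRX by -0.17 ± 0.07 (adjusted p = 0.0854), which did not pass, though it was -0.24 (adjusted p = 0.00251) without DIFF replicate 1. The spot used for Cdh2 was marked for uneven local background on DIFF replicate 2.

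Cdh1 (E-cadherin), the cadherin that defines epithelia, had log2 levels of 5.15 and 4.89 on the DIFF arrays, 5.10, 5.18 and 5.19 on the CM arrays and 5.30, 5.30 and 5.23 on the NoRX arrays. All 3 media lay within a narrow band, and DIFF overlapped CM. The difference of DIFF from NoRX was -0.26 ± 0.08 (adjusted p = 0.03) and was lost in 13 alternatives, among them without DIFF replicate 2 (-0.13, adjusted p = 0.0599), without any single NoRX array (adjusted p from 0.0555 to 0.095) and without CM replicate 2 or 3 (adjusted p = 0.0538 and 0.0524). The CM difference of -0.12 ± 0.08 (adjusted p = 0.212) did not pass, but the same value passed without DIFF replicate 1 or replicate 2 (adjusted p = 0.0162 and 0.0161).

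The catenins that tie cadherins to actin were lower in DIFF than in NoRX. Ctnna1, the link to actin, differed by -0.36 ± 0.09 (adjusted p = 0.00916), Ctnnb1 (beta-catenin) by -0.42 ± 0.08 (adjusted p = 0.00198) and Ctnnd1 (p120-catenin, which keeps cadherins at the membrane) by -0.60 ± 0.10 (adjusted p = 0.000402). Scaled to the median, the first was -0.20 (adjusted p = 0.274) and the second -0.26 (adjusted p = 0.16), and neither was called, while Ctnnd1 kept this call in every alternative. With array weights the Ctnna1 difference was not called either (adjusted p = 0.0904). None of the catenins differed by 2-fold between any media. In CM, Ctnnd1 was lower, at -0.24 ± 0.09 (adjusted p = 0.0351), a call lost without NoRX replicate 2 or 3 or any single CM array (adjusted p from 0.0651 to 0.157), and the differences of Ctnna1 (-0.08) and Ctnnb1 (-0.17) did not pass. Against CM, DIFF was lower in Ctnna1 (-0.28), Ctnnb1 (-0.25) and Ctnnd1 (-0.36). Without DIFF replicate 2 these became -0.14, -0.13 and -0.22, and those of Ctnna1 and Ctnnb1 were then not called, nor were they without CM replicate 2 or 3 (adjusted p from 0.0724 to 0.0869). The Ctnnd1 difference from CM was not called when scaled to the median (-0.19, adjusted p = 0.263), with array weights or within row 2 (adjusted p = 0.103 and 0.0616), and those of Ctnna1 and Ctnnb1 were not called in any of these 3 fits. Without DIFF replicate 2 the Ctnna1 difference from NoRX was -0.21, and without DIFF replicate 1 its difference from CM was -0.42.

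Desmosome genes all passed the test in CM against NoRX, 4 higher and 5 lower of 9, with a median difference of -0.21. In that comparison 52.2% of all genes were called. The calls of Dsc2, Evpl, Jup and Pkp1 held wherever they were tested, while Dsg2, Dsp, Pkp2, Pkp3 and Ppl lost theirs in some alternatives. In DIFF, 1 was higher and 6 lower than in NoRX (median -0.62), and 2 were higher and 4 lower than in CM (median -0.01). In CM, the cadherins and the plaque each held genes of opposite direction.

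Dsc2 (desmocollin 2), a desmosomal cadherin, was higher in CM than in both other media. Its log2 level was -7.49 and -6.63 on the DIFF arrays, -2.86, -2.77 and -2.78 on the CM arrays and -6.05, -4.76 and -5.19 on the NoRX arrays. It was well above background on all 3 CM arrays, on 1 of 3 NoRX arrays and on 0 of 2 DIFF arrays. CM was above NoRX by 2.53 ± 0.39 (adjusted p = 0.000253), and DIFF was at least 4.28-fold lower than CM (adjusted p = 7.67e-06). Its difference from NoRX in DIFF, -1.73 ± 0.44 (adjusted p = 0.00799), rests on signals near background: with normexp it turned to 0.17 (adjusted p = 0.667), and it was not called with array weights or the slide row as a block. Normexp also gave smaller differences of 0.94 for CM against NoRX and -0.78 for DIFF against CM, both still called, the second below the bound given. Dsg2 (desmoglein 2), its partner, had levels of 2.13 and 1.90 on the DIFF arrays, 2.83, 2.72 and 2.71 on the CM arrays and 3.02, 2.98 and 2.97 on the NoRX arrays. DIFF was lowest, at -0.98 ± 0.08 (adjusted p = 3.39e-06) against NoRX and -0.74 ± 0.08 (adjusted p = 1.91e-05) against CM, in every alternative run. The CM difference of -0.24 ± 0.08 (adjusted p = 0.0215) was lost without any single NoRX array or CM replicate 2 or 3 (adjusted p from 0.0563 to 0.0864).

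Dsp (desmoplakin) anchors keratin filaments to the desmosome. Its brighter probe had log2 levels of 3.91 and 3.69 on the DIFF arrays, 5.28, 5.43 and 5.39 on the CM arrays and 4.91, 4.85 and 4.81 on the NoRX arrays. The 3 media did not overlap, with DIFF lowest and CM highest, at differences of -1.06 ± 0.09 (adjusted p = 1.96e-06) for DIFF against NoRX, -1.57 ± 0.09 (adjusted p = 4.77e-08) for DIFF against CM and 0.51 ± 0.08 (adjusted p = 0.000226) for CM against NoRX. Its second probe gave -2.11 ± 0.15 (adjusted p = 7.46e-07) for DIFF against NoRX and -1.69 ± 0.15 (adjusted p = 2.58e-06) for DIFF against CM, but -0.42 ± 0.13 (adjusted p = 0.0221) for CM against NoRX. The 2 probes thus disagree in direction for CM, and their mean differed by 0.04 (adjusted p = 0.639).

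The other plakins, Ppl (periplakin) and Evpl (envoplakin), which pair in the cornified envelope of skin, parted. Ppl had log2 levels of 4.20 and 3.94 on the DIFF arrays, 2.61, 2.66 and 2.69 on the CM arrays and 2.29, 2.17 and 2.46 on the NoRX arrays. Both DIFF arrays stood above every other array, 3.39-fold above NoRX, at 1.76 ± 0.10 (adjusted p = 1.29e-07), and 2.66-fold above CM, at 1.41 ± 0.10 (adjusted p = 4.58e-07). The CM difference from NoRX was 0.35 ± 0.09 (adjusted p = 0.00797) and was not called within row 1 or with the slide row as a block (adjusted p = 0.0649 and 0.118). Evpl had levels of -2.64 and -3.23 on the DIFF arrays, -3.13, -2.92 and -2.75 on the CM arrays and -1.45, -1.26 and -1.41 on the NoRX arrays. NoRX was highest, with DIFF and CM overlapping, at -1.57 ± 0.19 (adjusted p = 5.22e-05) for DIFF against NoRX and -1.56 ± 0.17 (adjusted p = 2.12e-05) for CM against NoRX. Both Evpl calls held in every alternative, the first at -0.88 with normexp.

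Among the armadillo-repeat proteins of the plaque, Pkp1 (plakophilin 1) had log2 levels of 2.36 and 2.17 on the DIFF arrays, 1.87, 1.83 and 1.84 on the CM arrays and 2.87, 2.92 and 2.87 on the NoRX arrays. It was lower than NoRX in both other media and lowest in CM, at -0.62 ± 0.08 (adjusted p = 6.91e-05) in DIFF and -1.04 ± 0.07 (adjusted p = 5.77e-07) in CM, and DIFF was above CM by 0.42 ± 0.08 (adjusted p = 0.000744). Jup (plakoglobin), shared by desmosomes and adherens junctions, had levels of -1.49 and -1.99 on the DIFF arrays, -1.75, -1.75 and -1.76 on the CM arrays and -1.13, -1.06 and -1.25 on the NoRX arrays. Both other media lay below NoRX, at -0.59 ± 0.15 (adjusted p = 0.00692) in DIFF and -0.61 ± 0.13 (adjusted p = 0.00242) in CM, and DIFF and CM overlapped. The DIFF difference was -0.34 without DIFF replicate 2 and -0.37 with normexp, and it was not called with array weights or the slide row as a block (adjusted p = 0.0803 and 0.16). Pkp2 and Pkp3, the other plakophilins, differed from NoRX in CM by -0.21 ± 0.07 (adjusted p = 0.0281) and 0.26 ± 0.10 (adjusted p = 0.0493). Each of these calls was lost in 5 of the 8 fits that left out 1 array, Pkp2 without any NoRX array or CM replicate 2 or 3 and Pkp3 without NoRX replicate 1 or 2 or any CM array. In DIFF, Pkp3 was lower than in CM, at -0.34 ± 0.11 (adjusted p = 0.021), which was not called without CM replicate 1 or DIFF replicate 2 (adjusted p = 0.07 and 0.142). The differences of DIFF from NoRX did not pass for Pkp2 (-0.03) or Pkp3 (-0.08), and that of Pkp2 was -0.13 (adjusted p = 0.0489) without DIFF replicate 1.

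The connexins Gja1 and Gjb1 were higher in CM and lower in DIFF than in NoRX, while Gjb2 passed no test. Of 3 tested connexins, 2 were higher and 0 lower in CM than in NoRX (median difference 1.10), and 0 were higher and 2 lower in DIFF than in NoRX (median -1.29). Against CM, DIFF had 0 higher and 2 lower (median -1.95, or -1.74 with bounds). These directions are those of the 3 members. Of 8 further gap junction genes tested, 0 were higher and 3 lower in CM than in NoRX. In DIFF, 2 of the 8 were higher and 3 lower than in NoRX, and 2 were higher and 1 lower than in CM.

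Gjb1, the main connexin of hepatocytes, had log2 levels of 3.57 and 3.36 on the DIFF arrays, 5.20, 5.20 and 5.22 on the CM arrays and 4.74, 4.78 and 4.74 on the NoRX arrays. No 2 media overlapped. DIFF was 2.45-fold below NoRX, at -1.29 ± 0.08 (adjusted p = 1.62e-07), and 3.35-fold below CM, at -1.74 ± 0.08 (adjusted p = 8.02e-09), while CM was above NoRX by 0.45 ± 0.07 (adjusted p = 0.000251). These 3 calls held in every alternative run.

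Gja1, a connexin found in many cell types, among them bile duct and stellate cells, had log2 levels of -4.73 and -4.83 on the DIFF arrays, -1.41, -1.39 and -1.49 on the CM arrays and -2.99, -2.81 and -2.91 on the NoRX arrays. Its media did not overlap either, and 1 of the 2 DIFF arrays was well above background. CM was 2.78-fold above NoRX, at 1.48 ± 0.14 (adjusted p = 5.92e-06). DIFF differed from NoRX by -1.88 ± 0.15 (adjusted p = 1.87e-06) and from CM by -3.35 ± 0.15 (adjusted p = 9.59e-09). With normexp the difference from NoRX was -0.43 (adjusted p = 0.111) and not called, and that from CM was -1.45 and called. Gjb2, the other connexin of hepatocytes, was well above background on 0 DIFF, 3 CM and 1 NoRX arrays, and the NoRX arrays alone ran from -6.63 to -3.34. It passed no test, although DIFF lay at least 1.88-fold below CM (adjusted p = 0.0516). That difference was called without NoRX replicate 2 or 3 or DIFF replicate 1 (adjusted p from 0.0126 to 0.0401), and the CM difference from NoRX, 1.10 ± 0.70 (adjusted p = 0.219), was 1.94 (adjusted p = 0.0174) without NoRX replicate 2.

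Of the polarity genes, set against NoRX, Crb3 passed the test as higher in CM and as lower in DIFF. Pard6b passed only as higher in CM and Pard3 only as lower in DIFF. In CM 2 of 3 were higher and 0 lower than in NoRX (median difference 0.39), in DIFF 0 were higher and 2 lower than in NoRX (median -0.50), and all 3 were lower in DIFF than in CM (median -0.75). Crb3, the Crumbs protein of the apical membrane of epithelia, had log2 levels of -0.09 and -0.43 on the DIFF arrays, 1.33, 1.26 and 1.46 on the CM arrays and 0.25, 0.30 and 0.17 on the NoRX arrays. The media did not overlap, with CM 2.16-fold above NoRX, at 1.11 ± 0.10 (adjusted p = 4.3e-06), and DIFF 3.05-fold below CM, at -1.61 ± 0.11 (adjusted p = 2.78e-07). The difference of DIFF from NoRX, -0.50 ± 0.11 (adjusted p = 0.0038), was -0.33 without DIFF replicate 2 and was not called when scaled to the median (-0.34, adjusted p = 0.0781), with array weights or with the slide row as a block. Pard3, a scaffold of the PAR complex that sets up tight junctions, had levels of 2.13 and 1.87 on the DIFF arrays, 2.63, 2.70 and 2.72 on the CM arrays and 2.53, 2.46 and 2.55 on the NoRX arrays. DIFF was lowest, at -0.51 ± 0.09 (adjusted p = 0.00068) against NoRX and -0.68 ± 0.09 (adjusted p = 4.5e-05) against CM, and the first was not called when scaled to the median (-0.35, adjusted p = 0.0579). Pard6b, its partner in that complex, was higher in CM than in NoRX by 0.39 ± 0.14 (adjusted p = 0.0341) and lower in DIFF than in CM, at -0.75 ± 0.15 (adjusted p = 0.00138). The second was not called with array weights (-0.74, adjusted p = 0.116) and was -0.36 with normexp. The CM call was lost without NoRX replicate 2 or 3 or CM replicate 1 or 2 (adjusted p from 0.0577 to 0.155), with a difference of 0.25 without NoRX replicate 3. Without that array the DIFF difference from NoRX, -0.36 ± 0.15 (adjusted p = 0.0781), became -0.50 and passed (adjusted p = 0.0229).

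**Figure D4:**
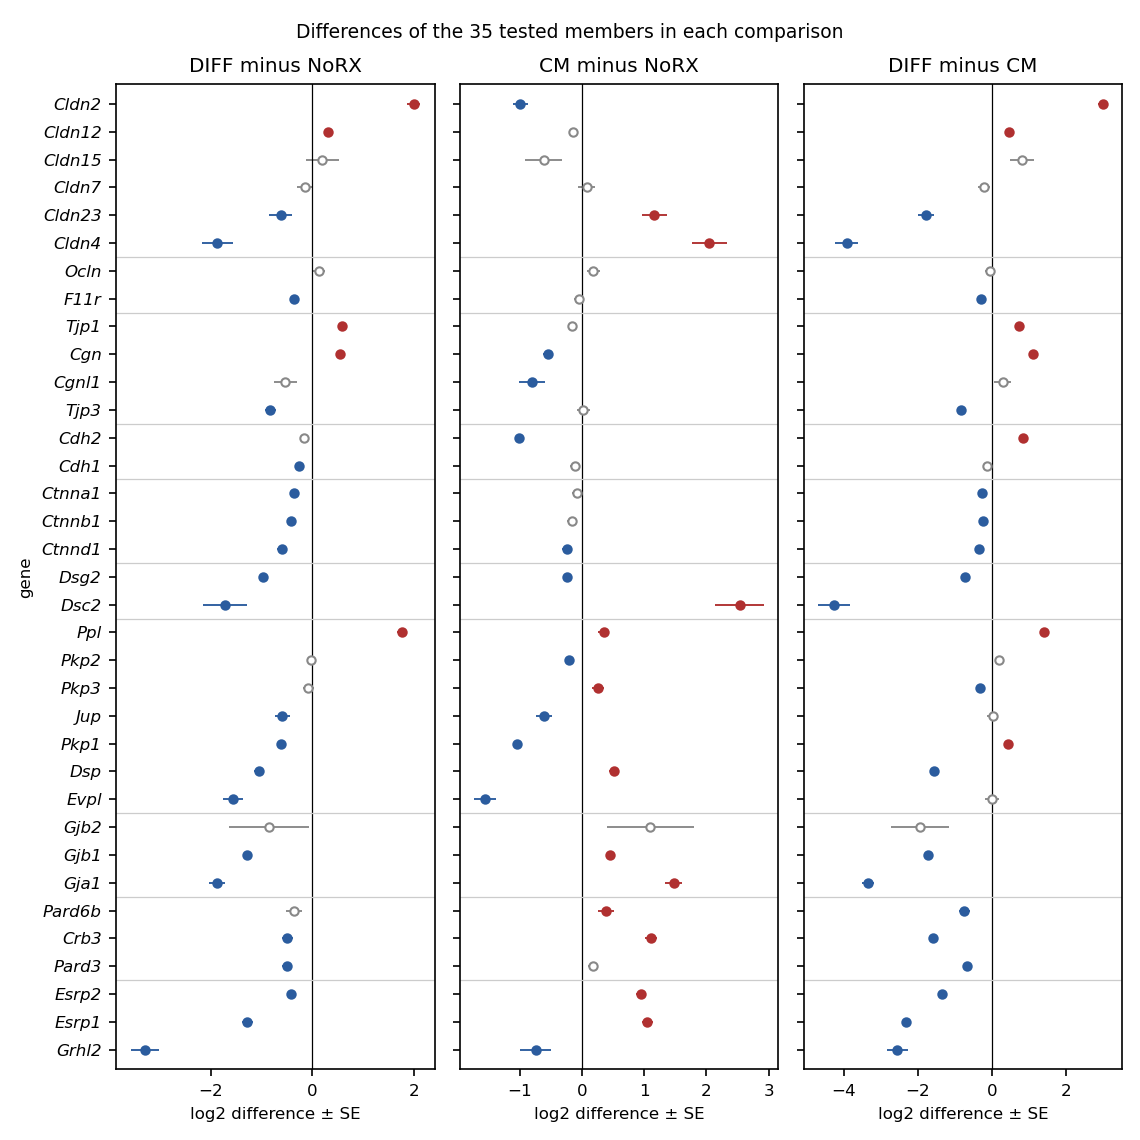
Each row is 1 of the 35 tested members and each panel 1 comparison. Points give the log2 difference and bars its SE, filled red or blue where limma's adjusted p was under 0.05 and open grey elsewhere. In DIFF minus NoRX, Cldn2 and Ppl lie farthest to the right, and the fitted values of Grhl2, Gja1 and Cldn4, which were not well above background on every DIFF array, lie far to the left.

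All 3 regulators were lower in DIFF than in NoRX (median difference -1.28) and than in CM (median -2.33, or -1.40 with bounds), while in CM 2 were higher and 1 lower than in NoRX. Esrp1 and Esrp2 are splicing factors that produce the epithelial forms of many transcripts. Esrp1 had log2 levels of -0.42 and -0.72 on the DIFF arrays, 1.66, 1.84 and 1.77 on the CM arrays and 0.66, 0.75 and 0.71 on the NoRX arrays. CM stood 2.07-fold above NoRX, at 1.05 ± 0.09 (adjusted p = 3.29e-06), and DIFF stood 2.43-fold below NoRX, at -1.28 ± 0.10 (adjusted p = 1.42e-06), and 5.03-fold below CM, at -2.33 ± 0.10 (adjusted p = 5.96e-09). The media did not overlap, and these calls held in every alternative run. Esrp2 had levels of 2.49 and 2.66 on the DIFF arrays, 3.93, 3.98 and 3.88 on the CM arrays and 3.02, 2.97 and 2.98 on the NoRX arrays. Its order was the same, with 0.94 ± 0.07 (adjusted p = 9.62e-07) for CM against NoRX and -1.35 ± 0.08 (adjusted p = 5.47e-08) for DIFF against CM. The difference of DIFF from NoRX, -0.41 ± 0.08 (adjusted p = 0.00113), was -0.25 (adjusted p = 0.222) when scaled to the median and was then not called, nor was it with the slide row as a block, and the spot used was marked for uneven local background on DIFF replicate 2.

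Grhl2 encodes a Grainyhead-like transcription factor that, in mouse epithelia, activates Cdh1 and Cldn4. Its log2 level was -5.83 and -6.28 on the DIFF arrays, -3.17, -3.73 and -3.59 on the CM arrays and -2.64, -3.08 and -2.54 on the NoRX arrays. Neither DIFF array was well above background, while all CM and NoRX arrays were. DIFF was at least 4.42-fold lower than NoRX (adjusted p = 2.72e-06) and at least 2.64-fold lower than CM (adjusted p = 1.3e-05). With normexp the difference of DIFF from CM was -0.24 (adjusted p = 0.454) and not called, and that from NoRX was -0.75 (adjusted p = 0.0398). The lower CM level, -0.74 ± 0.25 (adjusted p = 0.0272), was lost in 9 alternatives, among them within row 1 (-0.42, adjusted p = 0.202) and without NoRX replicate 1 or 3 or CM replicate 2 or 3 (adjusted p from 0.0817 to 0.112).

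Of 14 other regulators of epithelial character, 11 were tested and Grhl3, Ovol1 and Twist1 were not. In CM 6 were higher and 3 lower than in NoRX, in DIFF 1 was higher and 5 lower than in NoRX, and 3 were higher and 6 lower in DIFF than in CM. These are 81.8%, 54.5% and 81.8% of the 11, against the 52.2%, 42.1% and 59.1% of all genes called in those comparisons. Snai2 (Slug), a repressor of Cdh1 and other junction genes, was lower in CM than in NoRX, at -2.30 ± 0.08 (adjusted p = 7.2e-09). Its levels were 1.12 and 1.05 on the DIFF arrays, -1.04, -1.18 and -0.98 on the CM arrays and 1.17, 1.34 and 1.19 on the NoRX arrays, so the CM arrays stood apart and DIFF and NoRX lay close, with a difference of -0.15 ± 0.09 (adjusted p = 0.226). Its relative Snai1 (Snail) went the other way in CM, by 1.31 ± 0.18 (adjusted p = 0.000103), with levels of -5.88 and -5.91 on the DIFF arrays, -2.18, -2.35 and -2.14 on the CM arrays and -3.54, -3.53 and -3.54 on the NoRX arrays. No DIFF array was well above background for it, and DIFF was at least 6.37-fold lower than CM (adjusted p = 4.12e-08) and at least 2.57-fold lower than NoRX (adjusted p = 2.61e-06).

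Ehf, an ETS factor of epithelia, was higher in CM than in NoRX by 1.26 ± 0.09 (adjusted p = 7.01e-07) and lower in DIFF than in NoRX, at -2.43 ± 0.10 (adjusted p = 6.52e-09). Grhl1, a relative of Grhl2, was likewise higher in CM, by 0.70 ± 0.09 (adjusted p = 6.96e-05), and lower in DIFF, at -1.20 ± 0.10 (adjusted p = 2.65e-06). The differences of CM and of DIFF from NoRX were, in that order, 0.25 and 0.06 for Zeb1 and -0.07 and -0.94 for Zeb2, both repressors of Cdh1, of which the CM difference of Zeb1 and the DIFF difference of Zeb2 passed (adjusted p = 0.0379 and 2.53e-05). Klf4 was lower than in NoRX in both other media, at -0.74 in DIFF and -0.74 in CM. Klf5 and Twist2 were higher in CM than in NoRX, by 0.62 and 1.06. Elf3 was higher in DIFF than in NoRX by 0.47, and Ovol2 was lower in CM than in NoRX, at -0.29.

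Several probes were kept for 10 of the 35 members. The probes of a gene agreed in sign for all 10 in DIFF against NoRX, for 9 in DIFF against CM and for 8 in CM against NoRX. The exceptions were Ocln, for which no difference was called with the probe used, and Dsp in CM.

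**Figure D5:**
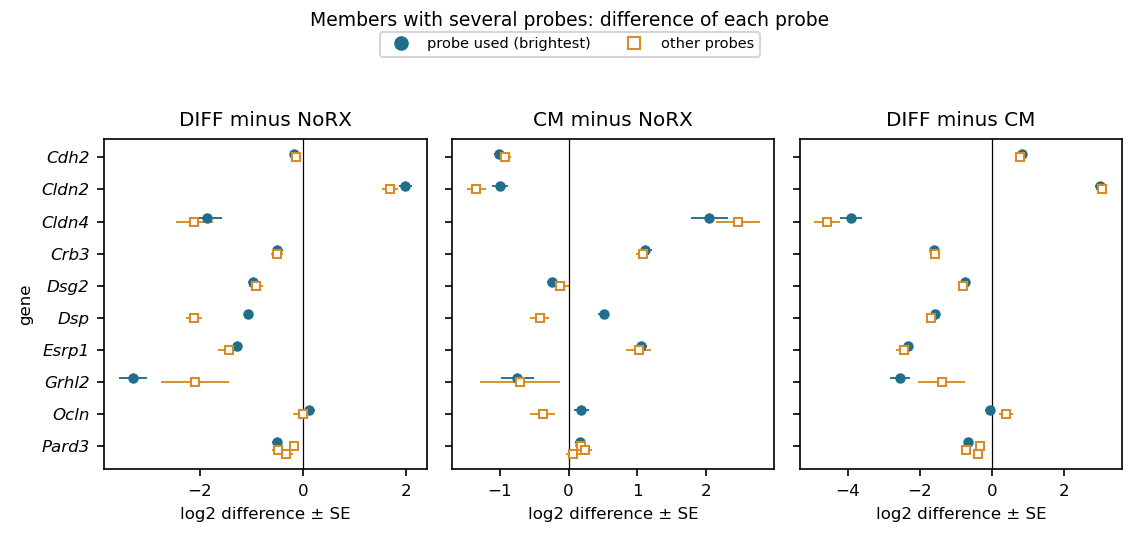
Rows are the 10 members with several probes kept and panels the 3 comparisons. Points give each probe's log2 difference with its SE, filled circles for the probe used and open squares for the others. In DIFF minus NoRX no gene has probes on both sides of 0, and in CM minus NoRX Dsp and Ocln do.

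Beyond the members, 99 further junction, polarity and regulator genes were listed, and 66 were tested. In DIFF 9 were higher and 28 lower than in NoRX (median difference -0.29), which is 13.6% and 42.4%, against 14.0% and 28.1% of all genes. In CM 23 were higher and 18 lower than in NoRX (median 0.10), 34.8% and 27.3%, against 26.9% and 25.3% of all genes. In DIFF 12 were higher and 29 lower than in CM (median -0.23), 18.2% and 43.9%, against 23.6% and 35.5% of all genes. Differences of the 66 ran from -4.36 to 7.88 in DIFF against NoRX, where 3 lay 2-fold or more higher and 14 lower. Of these 3, 2 were gap junction genes, a list with differences up to 7.88. The other was an adherens junction gene, a list with differences up to 1.37. The genes named next had to be measured throughout, which left these 3 out. Among genes measured on every array of both media, Cdh13 (T-cadherin, which lacks a cytoplasmic tail) and Jam2 (an adhesion molecule related to F11r) were lowest in DIFF against NoRX together with Ehf, at -3.61 ± 0.11 (adjusted p = 1.06e-09) and -2.29 ± 0.11 (adjusted p = 2.41e-08). Highest there, under the same limit, were Pard6a and Pard6g, relatives of Pard6b, and Perp, a desmosome membrane protein, at 0.54, 0.50 and 0.54. In CM against NoRX, Dlg3, a scaffold of the basolateral side, was highest at 1.63 ± 0.07 (adjusted p = 2.07e-08), with Snai1 and Ehf, and Dsg3 (desmoglein 3) and Panx1 (pannexin 1, a channel related to gap junctions) were lowest at -1.90 ± 0.25 (adjusted p = 9.33e-05) and -1.69 ± 0.07 (adjusted p = 2.34e-08) beside Snai2. In DIFF against CM, Cdh6 and Ajuba, an adherens junction adaptor, were highest with Snai2, at 1.21 ± 0.08 (adjusted p = 3.09e-07) and 0.95 ± 0.10 (adjusted p = 7.78e-06), and Cdh13 and Cdh17, a cadherin of intestine and embryonic liver, were lowest with Ehf, at -4.72 ± 0.11 (adjusted p = 7.25e-11) and -2.71 ± 0.12 (adjusted p = 7.79e-09).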

How the data were processed

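RNA from 8 samples of BMEL cells (DIFF 2, CM 3, NoRX 3) was read on 1 one-colour Agilent slide, and grouped by the medium in the labels. Agilent Feature Extraction 11.0.1.1 is named in the submitters' processing notes as the source of the spot values. Per the file headers, the processed signal used here is a linear intensity, background-subtracted and detrended by that program, and the deposited table of the whole series held identical values. Depth is not defined for arrays, and their number limits the precision.

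From these, log2 values minus each array's 75th percentile were computed, control spots and outlier spots were left out, spots of a probe were averaged, and the probe with the highest mean over the 8 arrays stood for a gene. Of 55681 probes, 27235 matched a RefSeq accession of GRCm38.p6. Probes well above background on at least 2 arrays were kept. Limma 3.58.1 in R 4.3.3 (lmFit and eBayes with a trend) fitted all 14044 genes and 8 arrays at once, two-sided. P-values were adjusted over all genes by the Benjamini-Hochberg method, and 0.05 was the threshold. Of these genes, 14005 had complete values. The fit was tested on simulated data. Figures were drawn with matplotlib 3.10.9.

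Members and lists were chosen with earlier results of these data known. All 42 members could be named, as could all other listed regulators of epithelial character and liver progenitor markers. Of the other listed genes, those with the 3 highest and 3 lowest differences past the test in each comparison, measured on every array of both media, were named. Cdh5, planned in both the junction and the endothelial list, was kept as an endothelial marker only.

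Alternatives covered background correction (normexp with an offset of 50, on the median spot signal since no mean signal was used), scaling, the filter, the choice of probe, array weights, slide row, the replicate number as a block, and leaving out each array. Close relatives among claudins, connexins and cadherins may share probe signal.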

Additional observations from a re-analysis of the deposited data

How the results depend on the processing

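In CM against NoRX, 11 of 23 called members were tested and kept their call in all 23 alternatives, in DIFF against NoRX 11 of 26 in all 22, and in DIFF against CM 16 of 26 in all 23. Each of these totals includes a fit to the deposited values of the whole series, which were identical to those used, so it could change no call. Cldn4, Dsc2 and Gja1 in both comparisons with CM, and Grhl2 in DIFF against NoRX, kept theirs wherever tested, but fell out under the filter to probes well above background on all arrays. With the slide row as a block, members called were 15 for CM against NoRX (6 lower) and 17 for DIFF against NoRX (3 higher), and genes called were 4792 and 2803, against 7328 and 5910 as reported. No row holds both DIFF and NoRX, so for that pair row and medium are only separated through CM. Normexp left 7 members lower in CM than in NoRX and turned DIFF against NoRX to 0.070 for Cldn23 and 0.17 for Dsc2. Median centring left 13 members lower in DIFF than in NoRX and split all genes of DIFF against CM into 3937 higher and 3184 lower, against 3315 and 4989. With array weights, DIFF had 2989 genes called against NoRX and 5314 against CM, where 5910 and 8304 were reported. Leaving out 1 array gave 7 to 15 members lower in CM than in NoRX, lowest without NoRX replicate 3 or CM replicate 2 or 3, and 7 to 11 members higher in DIFF than in CM, highest without DIFF replicate 2. The cause of these shifts was not tested. Left with DIFF replicate 2 alone, DIFF differed from NoRX by -0.24 at the median of all genes, and left with replicate 1 alone by 0.03. Dim genes (Cldn4, Cldn23, Dsc2, Gja1, Grhl2) are limited by signal over background.

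Replicate numbers were not taken to pair the arrays, since no label ties them to a shared source. Deviations of same-numbered CM and NoRX arrays correlated at -0.00732, 0.00951 and -0.0568, those of DIFF and CM arrays at 0.0867 and 0.175 and those of DIFF and NoRX arrays at -0.0238 and -0.0249, and 0 of 3 CM arrays correlated best with the NoRX array of its own number. With the replicate block, 20 members were called in CM against NoRX, and 25 in DIFF against either other medium. No group held 4 or more arrays, so single arrays could not be tested as outliers.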
